A study of Homo sapiens with 6 samples.

Results

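The mitochondrial protein import and protein quality control genes of HK-2 cells were compared with and without TEPP-46. Members were taken by name: every protein-coding gene called TIMM or TOMM followed by a number, and 16 named genes for matrix chaperones, import motor parts, processing peptidase subunits, mitochondrial proteases and prohibitin 2. In the GENCODE annotation 41 genes met this rule, 15 of them TIMM genes and 10 TOMM genes. Of these, 40 were among the 29483 genes of the expression table, and 39 passed the filter of a mean of at least 0.5 fragments per kilobase, scaled to the mapped reads of the library (FPKM). *TOMM6* was not listed in the table. *TOMM20L* averaged 0.177 FPKM and was not tested.

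HK-2 is an established human cell line derived from renal proximal tubule epithelium. All 6 cell samples were kept in medium with 25 mM D-glucose (HG) for 7 days. The control group then stayed without the compound, and the case group received 10 μM TEPP-46, an activator of the tetrameric form of pyruvate kinase M2, for 1 day, with 3 replicates in each group. The control group was also kept in HG, so the comparison is of TEPP-46 within HG and holds no normal-glucose sample. The study describes the replicates as independent and treated apart from each other, without saying when their cultures were split, so *P*-values measure the spread between these samples. As recovered from the FPKM values, the 3 control libraries rested on 18634891, 17924033 and 17378710 reads assigned to genes. The 3 case libraries rested on 16711934, 16047243 and 15363254. The median SD between replicates was 0.089 among controls and 0.19 among case libraries (log2 scale). On the first principal component, which held 37.2% of the variance, control values lay from -27.8 to -22.9, and case 1, 2 and 3 at 30.5, 9.54 and 34.4. On the second component case 1 lay at 36.8 and case 2 and 3 at -27.2 and -19.3.

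The labelled cell type was checked against its markers. Of 13 proximal tubule and renal epithelial markers, 10 were in the table, none reached the filter, and their summed level was 0.468 to 0.678 FPKM per library. Among them *LRP2*, the endocytic receptor megalin, was listed at 0 in 5 of the 6 libraries, and the renal lineage factor *PAX8* did not exceed 0.194 FPKM. The epithelial keratin *KRT18* was at 158 to 202 FPKM, and *EPCAM* at 12.7 to 14.6 FPKM. The defining tubule markers were thus near 0, while the epithelial keratins were abundant. The epithelial *CDH1* was at 1.83 to 3.50 FPKM and the mesenchymal *VIM* at 91.1 to 162 FPKM. The marker lists of endothelium, leukocytes, podocytes, and distal tubule or collecting duct each summed to at most 0.119 FPKM per library. Of these lists 4 of 4, 2 of 3, 1 of 3 and 2 of 4 genes were in the table. Of the 5 epithelial markers 1 was called, the cadherin *CDH1*, which was lower in the case group (log2(FC) = -0.64, adjusted *P*-value = 0.0156), while *KRT18*, *KRT19* and *EPCAM* had log2(FC) of 0.02, 0.02 and 0.04 and *KRT8* of -0.27 without a call. Of the mesenchymal markers only the filament gene *VIM* was abundant enough to test, and it was higher (log2(FC) = 0.66, adjusted *P*-value = 0.0204). The mesenchymal genes *COL1A1* and *ACTA2*, both below the filter, averaged 0.307 and 0.0882 FPKM in the control group and 0.183 and 0.0559 FPKM in the case group. Whether these differences bear on the import genes was not tested.

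Nearly all mitochondrial proteins are made in the cytosol and enter through the TOM complex of the outer membrane. Precursors with a cleavable presequence pass the TIM23 translocase of the inner membrane and are pulled into the matrix by the motor around the mitochondrial Hsp70, whereas carriers without a presequence are escorted by small TIM chaperones to the TIM22 translocase. In the matrix, the presequence is cut off, chaperonins fold the protein, and ATP-dependent proteases remove what fails to fold. Kidney proximal tubule cells are known for their dense mitochondria, and defects in import or proteolysis can be relayed to the nucleus by the integrated stress response.

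After TEPP-46, 9 of 26 tested genes of the import machinery were upregulated and 17 were not called. None of 13 genes of processing, folding and proteolysis was called in either direction, beside 7.34% of all tested genes called higher and 5.84% lower. With 13 genes, 0 calls lie close to these shares, and the contrast with the import machinery was not tested. This split pools the planned role groups and was not itself planned. Log2(FC) was also lower for longer genes (Spearman's rho of -0.61 with log2 length over the 39 members). The longest member, *SPG7* at 35772 bases, is among the 13. Among the 39 tested genes, 9 were upregulated DE genes (23.1%, adjusted *P*-value of at most 0.05 in limma over 13599 genes), where 7.34% of all tested genes were called higher. The 9 were *TIMM22*, *TIMM9*, *TIMM10*, *GRPEL2*, *TOMM22*, *TIMM44*, *TOMM7*, *TIMM23* and *TOMM34*, with fold changes from 1.23 to 1.52. In bulk RNA, more transcript per mitochondrion, more mitochondria per cell and a changed mix of cells cannot be told apart. No member was called lower, against 5.84% of all tested genes, nor at an unadjusted *P*-value under 0.05 or by limma voom on recovered reads. At an unadjusted *P*-value under 0.05, 17 members were higher and 0 lower, where 16.8% of all tested genes were higher and 16.2% lower. In 16 members every case value lay above every control value after scaling, where 19.5% of all genes did so, and 0 members lay wholly below, where 20.4% of all genes did.

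The median log2(FC) was 0.19 over the 39 members and -0.002 over all tested genes, and 29 members had a positive and 10 a negative value. With quantile normalization or length correction the members' median was 0.11, and without control replicate 2 it was 0.13. With unscaled FPKM it was 0.12, where that of all genes was -0.076. By library the members' median above the control mean was 0.25 in case 1, 0.13 in case 2 and 0.19 in case 3. When every library was instead rescaled to the same FPKM sum, the median of all genes moved to -0.20 and that of the members to -0.007, with 5 members called higher and 2 (*SPG7* and *TRAP1*) lower, where 2.80% of all genes were called higher and 17.5% lower. All 9 upregulated genes kept a positive log2(FC) under every alternative tried. The calls depended on which libraries entered. Without any single control replicate, or without case replicate 3, 0 members passed the threshold. By contrast, 12 were called higher when case replicate 1 was left out and 13 when case replicate 2 was. The share of all tested genes called higher moved alike, to between 0.404% and 0.890% in the fits with 0 members, 8.92% without case 1 and 13.4% without case 2. With all 6 libraries, *TIMM22*, *TIMM10* and *TOMM22* were called under every alternative, and *TIMM44* and *TOMM7* under all but those without the low-value filter or the intensity trend.

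**Figure D1:**
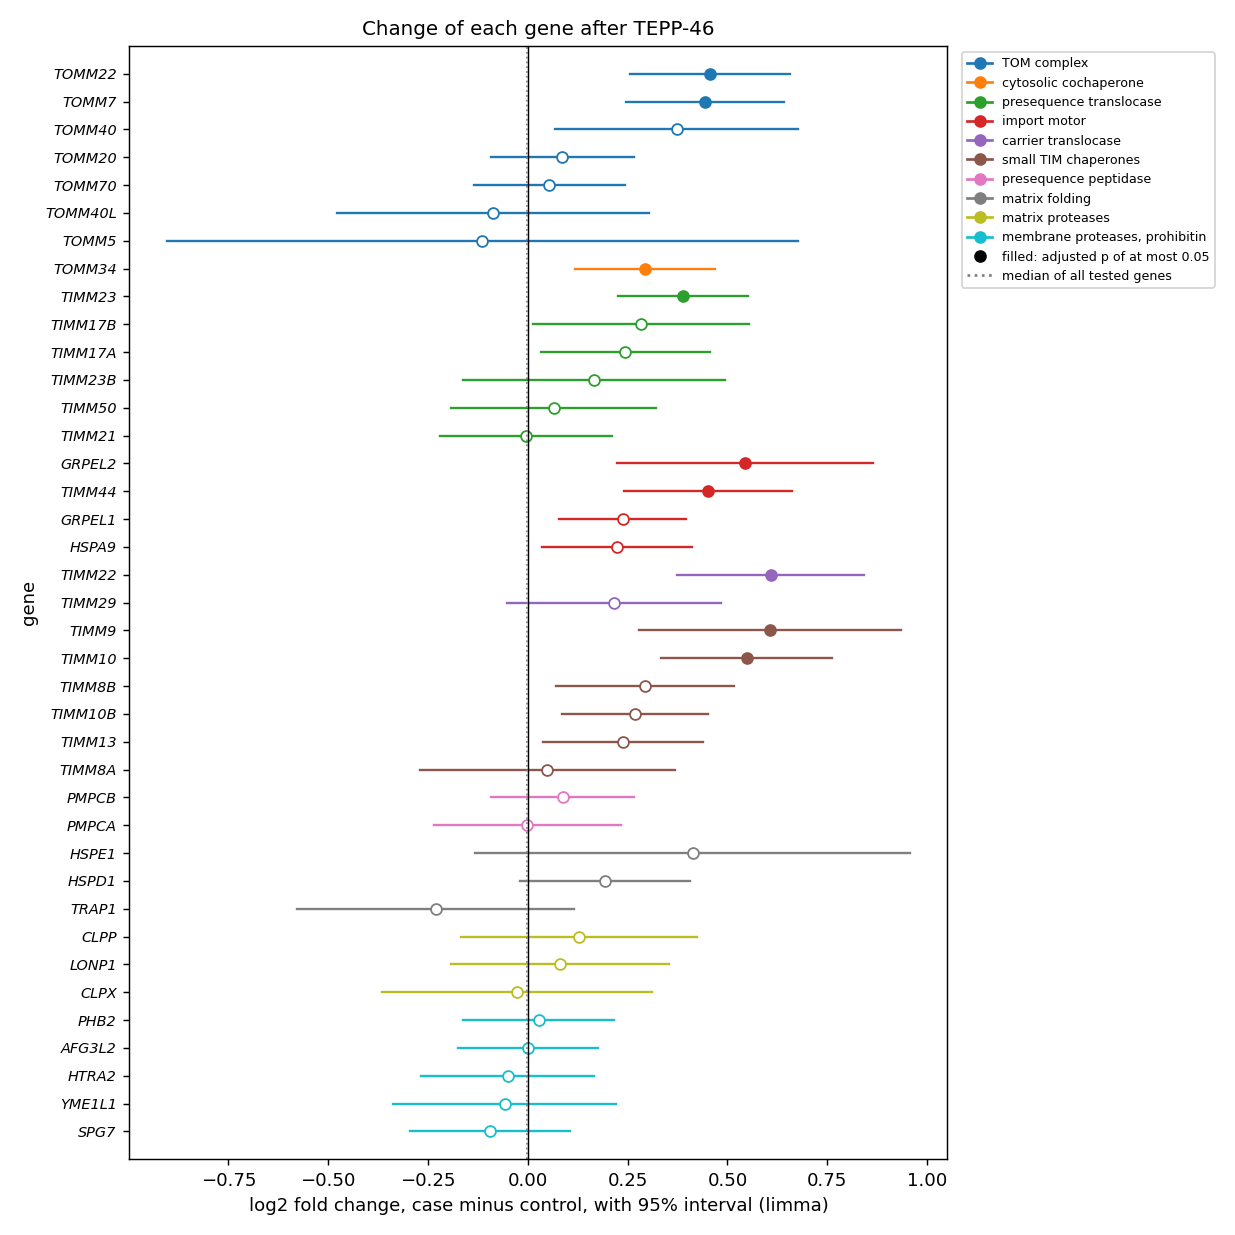
The log2 fold change (case minus control, horizontal axis) of the 39 tested genes, one per line, coloured by role, with its 95% interval from limma. The 9 filled points lie from 0.29 to 0.61 and all belong to the import machinery, while the 13 peptidase, folding, protease and prohibitin genes lie from -0.23 to 0.41 with intervals that reach across 0.

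In the import machinery, 26 genes were tested, 9 of them were upregulated (34.6%), and the median log2(FC) was 0.26, beside 7.34% and -0.002 over all tested genes. The remaining 13 genes had a median of -0.0003 and no call, beside 7.34% of all tested genes called higher and 5.84% lower. After scaling, none of the 13 had groups that stood apart, where 19.5% of all genes lay wholly above and 20.4% wholly below. The difference between these groups of genes was not tested.

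**Figure D2:**
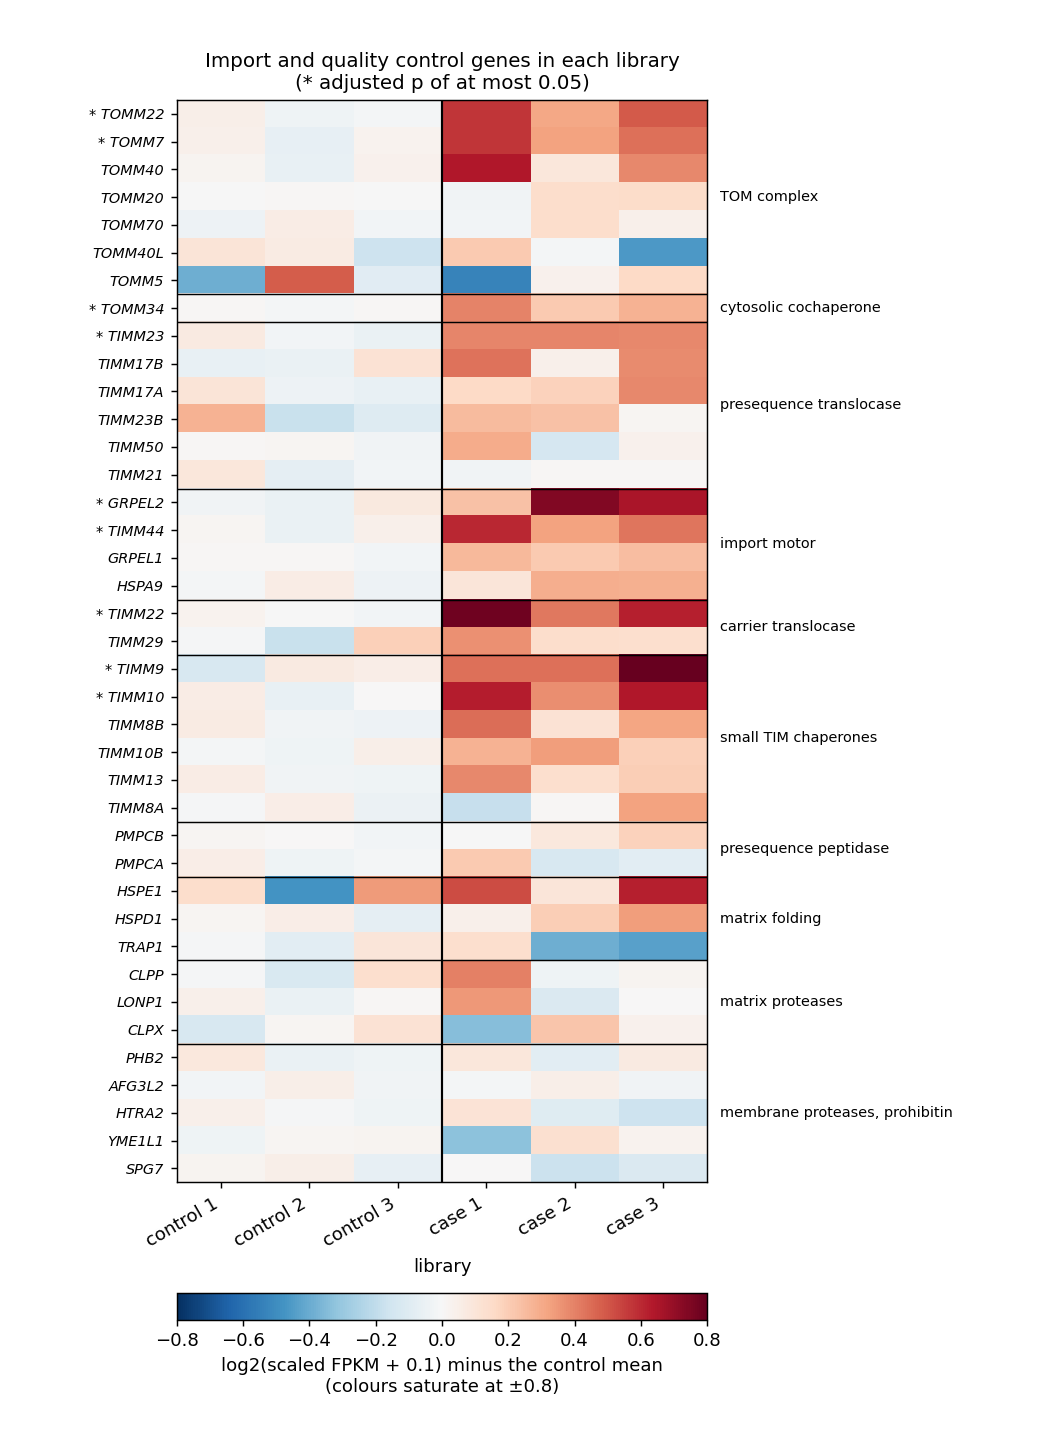
Colour gives log2(scaled FPKM + 0.1) minus the control mean for each tested gene (rows, by role) in each of the 6 libraries (columns), with an asterisk at the 9 upregulated genes. The upper rows, from the TOM complex to the small TIM chaperones, are red in most case cells, with a median over these 26 genes of 0.33, 0.20 and 0.30 in case 1, 2 and 3, and the lower rows vary between case replicates.

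The TOM complex is the entry gate. *TOMM22* (ENSG00000100216, chr22:38681957-38685421, GRCh38), the central receptor that links the pore to the other receptors, had 47.4, 45.1 and 45.8 FPKM in control 1 to 3 and 62.6, 55.9 and 61.6 FPKM in case 1 to 3. The groups did not overlap, and the case group was 1.37-fold higher (log2(FC) = 0.46 ± 0.09 SE, adjusted *P*-value = 0.0201). *TOMM7* (ENSG00000196683, chr7:22812628-22822849), a small subunit that tunes assembly of the complex, had 56.8, 53.0 and 56.8 FPKM against 75.3, 67.8 and 71.7 FPKM. It was upregulated 1.36-fold (log2(FC) = 0.44 ± 0.09 SE, adjusted *P*-value = 0.0212). For both genes case 1 was the highest library and case 2 the lowest of its group, yet still above each control.

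*TOMM40*, the pore itself, had 55.4, 52.5 and 56.3 FPKM in the control group and 78.0, 56.9 and 68.2 FPKM in the case group. Case 2 exceeded the highest control by little, and the gene did not pass (log2(FC) = 0.37 ± 0.13 SE, adjusted *P*-value = 0.0956), although limma voom called it higher. The presequence receptor *TOMM20* had 44.2, 45.0 and 44.6 FPKM against 40.004, 48.2 and 47.0 FPKM, with case 1 below and case 2 and 3 above the controls as deposited (log2(FC) = 0.09 ± 0.08 SE, adjusted *P*-value = 0.469). *TOMM70*, the receptor for carriers and chaperone-bound precursors, had 12.5, 13.4 and 12.7 FPKM against 11.6, 13.9 and 12.6 FPKM. Its groups overlapped (log2(FC) = 0.05 ± 0.08 SE, adjusted *P*-value = 0.681, 95% interval -0.13 to 0.24).

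*TOMM40L*, a second form of the pore, and *TOMM5* had log2(FC) of -0.09 and -0.11 and did not pass. *TOMM5* rested on only 21 to 57 reads per library, and 64.6% of its coding bases lie in exons of other annotated genes on the same strand, where reads may not be assigned to either gene. The coding bases of *TOMM6* lie entirely (100%) in exons of another gene. *TOMM34* (ENSG00000025772, chr20:44942130-44960397) encodes a cytosolic cochaperone that binds Hsp70 and Hsp90 and helps deliver precursors. It had 44.8, 44.2 and 45.1 FPKM in the control group and 53.7, 50.6 and 51.6 FPKM in the case group. This was the smallest upregulation among the 9 genes, 1.23-fold, with a narrow spread in both groups (log2(FC) = 0.29 ± 0.08 SE, adjusted *P*-value = 0.0433). It was not called with unscaled FPKM, equal FPKM sums, quantile normalization, no low-value filter, no intensity trend, the replicate block (adjusted *P*-value = 0.0641 in limma) or length correction, which gave a log2(FC) of 0.14.

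The presequence translocase of the inner membrane had 1 upregulated gene of 6, beside 7.34% of all genes. *TIMM23* (ENSG00000265354, chr10:45972489-46003742), its channel subunit, had 107, 100.4 and 98.5 FPKM in the control group and 122, 131 and 127 FPKM in the case group. After scaling, the 3 case libraries lay close together, 0.39, 0.39 and 0.38 above the control mean on the log2 scale (log2(FC) = 0.39 ± 0.07 SE, adjusted *P*-value = 0.0179). It was not called with equal FPKM sums, quantile normalization or length correction. *TIMM23* has a near-identical copy, *TIMM23B*, so reads could be split between them. *TIMM23B* stood at 3.38 to 4.65 FPKM over the 6 libraries without a call, and all of its coding bases (100%) are shared with a readthrough gene.

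*TIMM17A* and *TIMM17B* encode alternative partners of the channel. *TIMM17A* had 27.1, 24.6 and 24.3 FPKM against 25.8, 28.2 and 31.6 FPKM (log2(FC) = 0.24 ± 0.09 SE, adjusted *P*-value = 0.110). Its deposited values overlapped, as case 1 lay below control 1, and after scaling they did not. *TIMM17B* had 21.2, 21.3 and 24.0 FPKM against 27.4, 22.3 and 27.4 FPKM, with case 2 inside the control range (log2(FC) = 0.28 ± 0.12 SE, adjusted *P*-value = 0.136). The presequence receptor *TIMM50* had 39.1, 39.6 and 38.4 FPKM against 43.8, 34.7 and 38.1 FPKM. Its case values spread to both sides of the controls (log2(FC) = 0.06 ± 0.11 SE, adjusted *P*-value = 0.723). *TIMM21*, which couples the inner translocase to the TOM complex, was at 3.46 to 4.11 FPKM with an adjusted *P*-value of 0.977.

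The import motor had 2 upregulated genes of 4, beside 7.34% of all genes, and in all 4 every scaled case value exceeded every control value, as in 19.5% of all genes. *TIMM44* (ENSG00000104980, chr19:7926718-7943667), the scaffold that holds the motor at the channel, had 29.0, 27.7 and 29.7 FPKM against 40.1, 35.2 and 37.0 FPKM. It was upregulated 1.37-fold (log2(FC) = 0.45 ± 0.09 SE, adjusted *P*-value = 0.0226). *GRPEL2* (ENSG00000164284, chr5:149345430-149354583) encodes a nucleotide exchange factor of the mitochondrial Hsp70. It had 5.27, 5.19 and 5.73 FPKM against 5.81, 8.90 and 8.15 FPKM. Case 1 barely exceeded control 3, while case 2 and 3 were clearly higher, so that the mean change of 1.46-fold (log2(FC) = 0.54 ± 0.14 SE, adjusted *P*-value = 0.0415) was carried by those libraries. It was not called without case replicate 2, nor with unscaled FPKM, equal FPKM sums, no low-value filter or no intensity trend. An antisense gene covers 17% of its coding bases, and the strand setting of the counting was not given in the sources used here.

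*GRPEL1*, the other exchange factor, had 25.5, 25.6 and 25.1 FPKM against 27.8, 28.7 and 28.7 FPKM. The groups were tight and apart, yet the change lay just outside the threshold (log2(FC) = 0.24 ± 0.07 SE, adjusted *P*-value = 0.0567). *HSPA9*, the mitochondrial Hsp70 and the most abundant transcript of the motor, had 125, 133 and 124 FPKM against 125, 152 and 148 FPKM. Its case 1 value lay among the deposited control values and above them only after scaling (log2(FC) = 0.22 ± 0.08 SE, adjusted *P*-value = 0.102), and under quantile normalization its log2(FC) was -0.002. Without case replicate 1 both genes were called higher.

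The promoter of *GRPEL2* is printed because it held 2 copies of the ETS-type motif CCGGAAGT, the only member to do so. The window runs from 150 bases before to 10 bases after the RefSeq start on GRCh38.p14 (chr5:149345349-149345508, plus strand), and capitals mark the motif.
*GRPEL2* promoter: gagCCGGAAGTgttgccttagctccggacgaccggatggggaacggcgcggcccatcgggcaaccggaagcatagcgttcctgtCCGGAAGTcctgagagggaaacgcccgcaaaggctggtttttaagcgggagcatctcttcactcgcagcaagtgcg
The copies lie 147 and 66 bases before that RefSeq start. The second copy, at chr5:149345433-149345440, lies within the gene bounds given above, which are from GENCODE and begin further upstream.

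In the fit reported here, the carrier translocase held the member with the largest log2(FC), *TIMM22* at 0.608, next to *TIMM9* at 0.606. The log2(FC) of *GRPEL2* exceeded that of *TIMM22* under quantile normalization, GC or length correction, or without case replicate 1. That of *TIMM9* also exceeded it without case replicate 1, and without control replicate 2 or 3. *TIMM22* (ENSG00000177370, chr17:997129-1003671), the channel that inserts metabolite carriers into the inner membrane, had 15.2, 15.0 and 14.8 FPKM in the control group and 23.6, 19.7 and 22.0 FPKM in the case group. Control values were nearly equal, and each case value lay well above them, a 1.52-fold upregulation with a 95% interval of 1.3 to 1.79 (log2(FC) = 0.61 ± 0.10 SE, adjusted *P*-value = 0.0150). Its rank by *P*-value was 287 of the 13599 tested genes. *TIMM29*, a metazoan subunit of the same complex, had 12.4, 11.1 and 14.4 FPKM against 14.8, 13.6 and 13.2 FPKM and overlapped (log2(FC) = 0.22 ± 0.12 SE, adjusted *P*-value = 0.234).

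The *TIMM22* promoter is printed because *TIMM22* was the only upregulated member with a match to TGATGNAA, the letters of the amino acid response element bound by ATF4-type factors. Capitals mark the match, which is on the opposite strand 82 bases before the start, in the same window as above (chr17:996979-997138, plus strand).
*TIMM22* promoter: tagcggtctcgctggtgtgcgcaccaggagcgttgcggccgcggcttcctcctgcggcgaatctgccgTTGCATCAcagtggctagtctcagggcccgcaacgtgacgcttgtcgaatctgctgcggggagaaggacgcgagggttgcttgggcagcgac

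The small TIM chaperones shield hydrophobic precursors in the intermembrane space. All 6 had a positive log2(FC), as did 6769 of the 13599 tested genes, although *TIMM8A* turned negative with unscaled FPKM, equal FPKM sums, length correction or without case replicate 3. Of the 6, 2 were upregulated, beside 7.34% of all genes, and the partners *TIMM9* and *TIMM10*, which form the hexamer that serves TIM22, were these 2. *TIMM10* (ENSG00000134809, chr11:57528464-57530803) had 80.4, 74.3 and 77.8 FPKM against 109.7, 98.3 and 115 FPKM. The groups stood apart, and the upregulation was 1.46-fold (log2(FC) = 0.55 ± 0.09 SE, adjusted *P*-value = 0.0153). *TIMM9* (ENSG00000100575, chr14:58408495-58427531) had 13.8, 16.0 and 15.9 FPKM against 18.9, 20.3 and 27.8 FPKM. Case 3 was far above its group, and the other case values still exceeded each control (1.52-fold, log2(FC) = 0.61 ± 0.14 SE, adjusted *P*-value = 0.0327). It was not called with unscaled FPKM, equal FPKM sums, no low-value filter, no intensity trend or length correction.

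*TIMM8B* and *TIMM13*, subunits related to the other small TIM hexamer, were at 64.6 ± 2.32 and 47.8 ± 1.58 FPKM in the control group and at 75.2 ± 6.02 and 53.5 ± 3.04 FPKM in the case group (SD, n = 3). Their log2(FC) were 0.29 and 0.24, with adjusted *P*-values of 0.0797 and 0.102. *TIMM10B*, which tethers the chaperones to TIM22, had a log2(FC) of 0.27 (adjusted *P*-value = 0.0603), and 100% of its coding bases are shared with a readthrough gene. *TIMM8A* differed from these: its case values of 2.78, 3.41 and 4.16 FPKM enclosed the control values of 3.43, 3.61 and 3.37 FPKM (log2(FC) = 0.05, adjusted *P*-value = 0.834).

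The *TIMM10* promoter is printed because the ETS-type motif and the E-box CACGTG lay side by side at its RefSeq start. Both lie within the GENCODE gene bounds given above, which begin further upstream. The window is chr11:57530745-57530904 on the minus strand, and capitals mark first the ETS-type motif and then the E-box.
*TIMM10* promoter: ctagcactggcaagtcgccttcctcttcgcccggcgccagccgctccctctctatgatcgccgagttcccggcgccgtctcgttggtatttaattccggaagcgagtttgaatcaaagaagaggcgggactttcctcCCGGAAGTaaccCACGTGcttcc

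**Figure D3:**
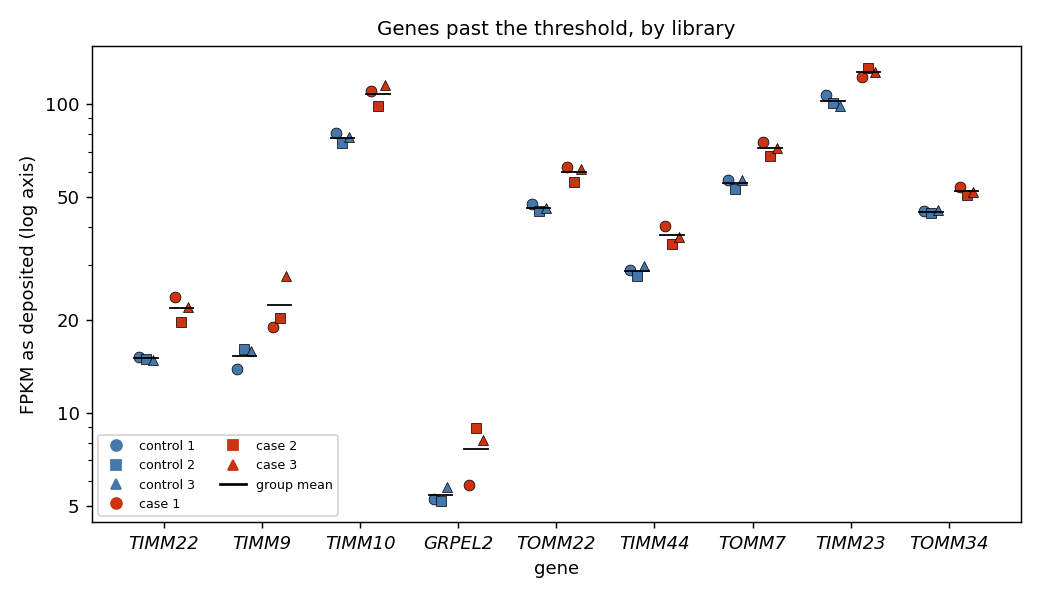
FPKM as deposited (log axis) of the 9 upregulated genes in each of the 6 libraries, with a bar at each group mean. Every case symbol lies above every control symbol of its gene, by least for *GRPEL2*, where case 1 is at 5.81 and control 3 at 5.73 FPKM.

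Beyond import, none of the 3 matrix folding genes was called, beside 7.34% of all genes called higher and 5.84% lower. With only 3 genes, 0 calls lie near these shares. *HSPD1*, the chaperonin Hsp60, had 119.9, 124 and 114 FPKM against 112, 134 and 143 FPKM. As deposited, case 1 was the lowest of all libraries and case 3 the highest (log2(FC) = 0.19 ± 0.09 SE, adjusted *P*-value = 0.188), and without case replicate 1 the gene was called higher. *HSPE1*, its partner cochaperonin, had 1.82, 1.16 and 2.12 FPKM against 2.21, 1.73 and 2.47 FPKM, which overlapped (log2(FC) = 0.41 ± 0.24 SE, adjusted *P*-value = 0.258). This level rested on 41 to 75 reads per library, and 47.9% of its coding bases are shared on the same strand with the readthrough gene *HSPE1-MOB4*, so its FPKM may not give its full level. *TRAP1*, the mitochondrial Hsp90, had 32.1, 30.6 and 34.7 FPKM against 32.5, 24.2 and 22.8 FPKM. Case 1 lay within the control range and case 2 and 3 lay below them, and the gene did not pass (log2(FC) = -0.23 ± 0.15 SE, adjusted *P*-value = 0.318). Without case replicate 1 it was called lower, and 34.9% of its coding bases overlap *DNASE1* on the opposite strand.

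*HSPD1* and *HSPE1* lie head to head on chromosome 2, and an E-box at chr2:197500357-197500362 falls in both promoters. It lies 88 bases before the RefSeq start of *HSPD1* and 22 bases before that of *HSPE1*. Their shared stretch is printed in the *HSPE1* direction to show this arrangement (chr2:197500229-197500388, plus strand, E-box in capitals).
*HSPE1* promoter: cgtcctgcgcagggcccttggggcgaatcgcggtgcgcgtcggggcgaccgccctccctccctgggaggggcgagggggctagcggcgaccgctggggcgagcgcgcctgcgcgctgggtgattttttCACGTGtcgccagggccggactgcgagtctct

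Of the 3 matrix proteases 0 were called, which lies near the 7.34% of all genes called higher and 5.84% lower. *LONP1*, the Lon protease, had 86.3, 81.2 and 84.8 FPKM against 97.8, 76.1 and 80.4 FPKM, with case 1 above and case 2 and 3 below all controls as deposited (log2(FC) = 0.08 ± 0.12 SE, adjusted *P*-value = 0.673). *CLPP*, the proteolytic core of the Clp protease, had 100.4, 93.2 and 112 FPKM against 122, 96.8 and 98.0 FPKM (log2(FC) = 0.13 ± 0.13 SE, adjusted *P*-value = 0.520). *CLPX*, the unfoldase that feeds it, had 9.18, 10.2 and 10.96 FPKM against 7.26, 11.5 and 9.83 FPKM (log2(FC) = -0.03 ± 0.15 SE, adjusted *P*-value = 0.916). Case 1 was thus the highest library for the core and the lowest for its unfoldase. The presequence peptidase genes *PMPCA* and *PMPCB* had log2(FC) of -0.002 and 0.09, with 95% intervals of -0.24 to 0.23 and -0.09 to 0.27.

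The 5 genes of inner membrane and intermembrane space proteases and prohibitin also had 0 calls, near the 7.34% of all genes called higher and 5.84% lower. *YME1L1*, the protease facing the intermembrane space, had 17.8, 18.6 and 18.7 FPKM against 13.3, 19.7 and 17.9 FPKM. Case 1 lay below all controls and case 2 above them (log2(FC) = -0.06 ± 0.12 SE, adjusted *P*-value = 0.775). *AFG3L2*, a subunit of the protease facing the matrix, had 11.3, 11.9 and 11.4 FPKM against 10.4, 11.6 and 10.8 FPKM, a log2(FC) of -0.0003 ± 0.08 SE (adjusted *P*-value = 0.998). Its partner *SPG7* had 8.44, 8.66 and 8.02 FPKM against 7.65, 7.27 and 7.35 FPKM. Every case value lay below every control value as deposited but not after scaling (log2(FC) = -0.10 ± 0.09 SE, adjusted *P*-value = 0.480). *PHB2*, which forms the ring-shaped prohibitin scaffold, had 144, 132 and 134 FPKM against 133, 126 and 137 FPKM (log2(FC) = 0.03 ± 0.08 SE, adjusted *P*-value = 0.843). *HTRA2*, a protease of the intermembrane space, had a log2(FC) of -0.05 (adjusted *P*-value = 0.741). For *AFG3L2* and *PHB2* the 95% intervals, -0.18 to 0.17 and -0.16 to 0.22, leave out a change as large as those of the 9 upregulated genes.

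Matches of short motifs were counted in the RefSeq promoters, 250 bases before to 50 bases after the start, on both strands, for the 36 members found there. The ETS-type motif CCGGAAGT was in 8 of the 36 (22.2%), against 4.14% of all 35116 promoters and 7.84% of the 14072 promoters of tested genes. The E-box CACGTG was in 7 (19.4%), against 7.26% and 9.48%. The amino acid response element TGATGNAA was in *TIMM22* and *PMPCB* (5.56%), against 3.62% and 1.95%, and the cAMP response element TGACGTCA was in *TRAP1* (2.78%), against 1.85% and 2.97%. No member held the NRF1 motif or the heat shock element in the letters searched, which 1.98% and 0.32% of the promoters of tested genes did. Of the 9 upregulated genes 2 held the ETS-type motif (*GRPEL2* and *TIMM10*) and 7 did not.

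Other import factors outside the name rule, which act beside TOM and TIM, were listed as 23 genes, of which 21 were tested. Of these 2 were upregulated and 0 downregulated, beside 7.34% and 5.84% of all genes, with 8 and 2 at an unadjusted *P*-value under 0.05, where 16.8% and 16.2% of all genes were. *MTX2*, an outer membrane metaxin tied to the sorting and assembly machinery, had 25.3, 23.1 and 27.0 FPKM against 29.8, 32.7 and 34.5 FPKM (log2(FC) = 0.44, adjusted *P*-value = 0.0221). *CHCHD3*, a core subunit of the cristae-organizing complex, had 25.1, 23.0 and 22.2 FPKM against 30.3, 32.5 and 35.5 FPKM (log2(FC) = 0.56, adjusted *P*-value = 0.0137). Neither gene overlapped between the groups, and their sizes were within the range of the 9 upregulated members.

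Of 22 other peptidases and quality control genes 1 was upregulated and 1 downregulated, no larger a share than the 7.34% and 5.84% of all genes. The rhomboid protease *PARL*, which cuts PINK1 in the inner membrane, had 27.1, 29.7 and 30.4 FPKM against 34.7, 34.5 and 40.6 FPKM (log2(FC) = 0.41, adjusted *P*-value = 0.0310). The deubiquitinase *USP30*, which sits at the outer membrane and opposes mitophagy, had 2.23, 2.68 and 2.41 FPKM against 1.32, 1.92 and 1.41 FPKM (log2(FC) = -0.57, adjusted *P*-value = 0.0496). Both sets of values were apart between groups.

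Cytosolic delivery factors carry precursors to the outer membrane or extract those that are misplaced, and 1 of 16 was upregulated and 2 downregulated, beside 7.34% and 5.84% of all genes. *HSPA8*, the constitutive cytosolic Hsp70, had 275, 279 and 268 FPKM against 116, 115 and 124 FPKM (log2(FC) = -1.13 ± 0.07 SE, adjusted *P*-value = 0.00152), while its mitochondrial relative *HSPA9* had a log2(FC) of 0.22 that did not pass. The ubiquilin *UBQLN4* had a log2(FC) of -0.34 (adjusted *P*-value = 0.0312), and the membrane extractase *ATAD1* had 0.36 (adjusted *P*-value = 0.0424).

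The relay from mitochondrial stress to transcription, through ATF4 and its targets, had 5 upregulated of 10 genes and 0 downregulated, beside the same shares of all genes. This list was chosen with earlier results of these data known, so the count does not test the relay. The paper has *DDIT3* and *TRIB3* among its top 10 upregulated genes. *DDIT3*, the factor CHOP, had 14.7, 11.7 and 11.9 FPKM against 35.4, 34.2 and 42.0 FPKM (log2(FC) = 1.62 ± 0.12 SE, adjusted *P*-value = 0.00152). *TRIB3*, a pseudokinase induced by ATF4, had 119, 119 and 113 FPKM against 239, 214 and 229 FPKM (log2(FC) = 1.03, adjusted *P*-value = 0.00197). *ATF4* itself had 307, 294 and 297 FPKM against 367, 347 and 369 FPKM (log2(FC) = 0.35, adjusted *P*-value = 0.0296). The stress-induced genes *SESN2* and *CHAC1* had log2(FC) of 0.73 and 0.62. *HSPD1*, *HSPE1*, *LONP1* and *CLPP*, classical genes of the mitochondrial unfolded protein response, were not called, and the difference from these 5 genes was not tested. The same relay also serves stress outside mitochondria, and its source was not tested.

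Log2(FC) varied with the gene length behind the FPKM. Over the 39 members, Spearman's rho between log2(FC) and log2 length was -0.61, and over 13489 tested genes it was -0.36, as descriptions from the same 6 libraries. The 9 upregulated genes were 777 to 4888 bases long with a median of 2062, against 3513 over all members and 4360 over all tested genes. Under 2500 bases, a boundary chosen after the values were seen, 6 of 13 members were upregulated, where 11% of all genes of that length were. At 2500 bases or more 3 of 26 were, against 6.04%. After each library was corrected for gene length, 6 of the 9 genes remained called (*TIMM22*, *TIMM10*, *TIMM44*, *TOMM22*, *TOMM7* and *GRPEL2*) and *TIMM23*, *TIMM9* and *TOMM34* did not, where 6.43% of all tested genes were called higher.

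The case replicates differed from each other along GC content. The value in case 1 minus the mean of case 2 and 3 had a Spearman's rho of 0.79 with the GC content of the longest transcript over the 39 members, and 0.61 over 13489 tested genes. The log2(FC) of the group comparison had a rho of 0.005 with GC content over the members. After correction for GC content 15 members were upregulated, where 13.1% of all tested genes were, and these held all 9 genes together with *GRPEL1*, *HSPA9*, *HSPD1*, *TIMM10B*, *TIMM13* and *TOMM40*. The source of the GC-related difference between the case replicates was not tested.

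**Figure D4:**
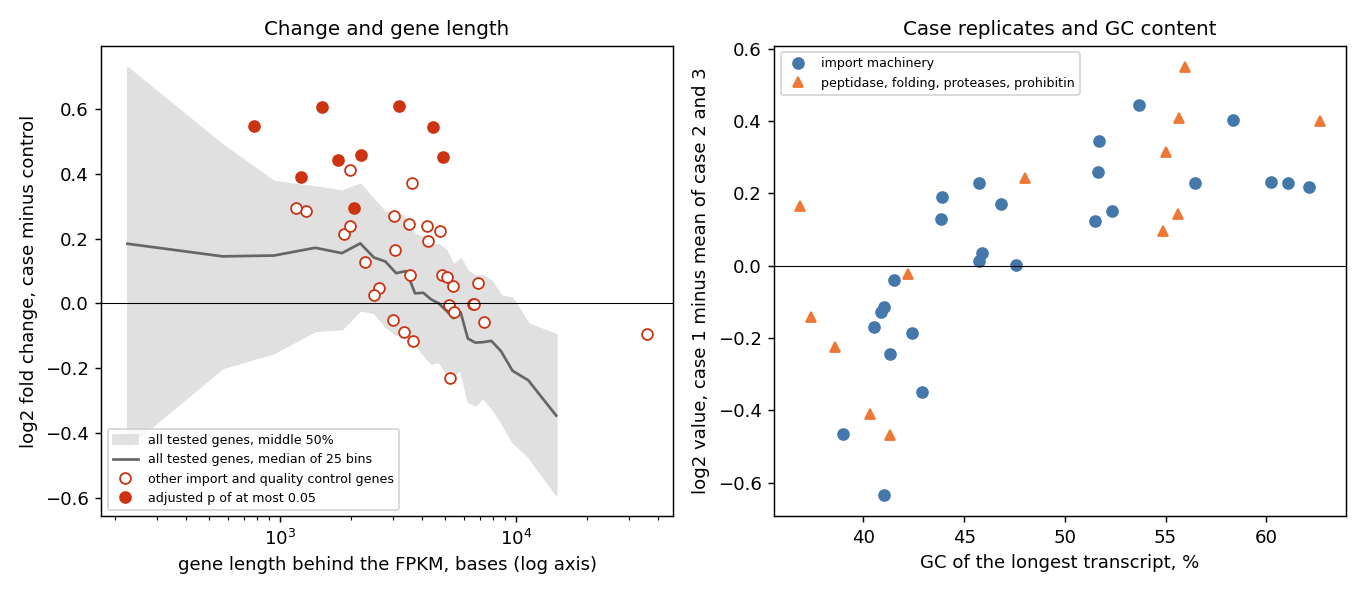
On the left, log2 fold change against gene length (log axis) for the 39 members over the binned median and middle 50% of all tested genes, with upregulated genes filled. On the right, the log2 value of case 1 minus the mean of case 2 and 3 against GC content of the longest transcript. On the left, values are lower for longer members (rho -0.61), and on the right they are higher for members with more GC (rho 0.79).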

How the data were processed

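Per the labels and the study's methods, the authors filtered reads, aligned them to GRCh38.p13 with HISAT2 (version 2.1.0), counted reads per gene with HTSeq (version 0.6.0) and deposited FPKM values, 1 column per library. The strand setting and annotation release were not given in the sources used here. FPKM were divided by median-of-ratios factors (0.944 to 1.04) over genes averaging 0.5 FPKM or more, transformed as log2(value + 0.1), and tested in limma (version 3.58.1, R 4.3.3) with an intensity trend and no covariates. A fold change is on this scale and understates the change of low genes. *P*-values were adjusted by Benjamini-Hochberg over 13599 genes and called at 0.05 or less. An exact permutation of 3 against 3 samples cannot go below 0.10. Symbols, coordinates and coding overlaps came from GENCODE 44 (GRCh38), which matched 29063 of the 29483 identifiers. Reads and gene lengths were recovered from the steps of low FPKM values. The read total was set so that the lengths of 800 genes came closest to whole numbers. Of these same genes 99.6% were then whole within 0.01, which is the fit itself and no independent check. Intervals from these reads would cover counting error only. Every called or defining member was described in full, and the rest by counts and ranges. The members and lists were chosen with earlier results of these data known. The fitting code was tested on simulated data. Alternatives changed the scaling, pseudocount, filter, variance model, replicate block and libraries, and those added after seeing the data corrected length or GC content or used limma voom. The scaling factors were first taken over every gene above 0 in all libraries. The 0.5 FPKM limit on them was set after results were seen, and the first version is kept as an alternative. Protein sequences were not used here.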

Additional observations from a re-analysis of the deposited data

How the results depend on the processing

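All 9 upregulated genes kept a positive log2(FC) under each of the 20 alternatives. Leaving out 1 library at a time gave 0 to 13 members called higher, 0 to 1 called lower, 55 to 1813 genes higher and 14 to 1682 lower over all genes, and a member median of 0.13 to 0.21. Without control replicate 1, 2 or 3, or case replicate 3, members called higher were 0, where 0.404% to 0.890% of all tested genes were. Members called higher were 13 without case replicate 2, where 13.4% of all tested genes were, and 12 without case replicate 1, where 8.92% were. *TRAP1* was called lower without case replicate 1, where 7.86% of all tested genes were. The fit used 1 variance per gene for both groups, while the median SD was 0.089 among controls and 0.19 among case libraries (log2 scale). Why the calls move so far when 1 library is left out was not tested.

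Unscaled FPKM gave 6 members higher, a member median of 0.12 and 662 genes higher against 1124 lower. Equal FPKM sums gave 5 members higher and 2 lower, a member median of -0.0074, and 381 genes higher against 2383 lower. Quantile normalization gave 7 members higher, a median of 0.11, and 873 genes higher against 895 lower. No filter on low values gave 4 members higher and 329 and 191 genes, with 27922 genes tested. No intensity trend gave 4 members and 436 and 416 genes. Correction for GC content gave 15 members and 1773 and 1490 genes. Correction for gene length gave 6 members, a median of 0.11, and 874 and 605 genes. Limma voom on recovered reads gave 10 members and 1286 and 1501 genes. Scaling factors over all genes above 0, the setting used at first, gave the same 9 members. Pseudocounts of 0.01 and 1, a filter of 1 FPKM and robust estimation also gave the same 9. The other import, peptidase, delivery and relay genes together had 9 called higher and 3 lower in the fit reported here. They had 5 and 11 with equal FPKM sums, 8 and 6 with quantile normalization, and 5 and 1 without the low-value filter or the intensity trend. GC correction gave 15 and 4, and limma voom 14 and 4. Without case replicate 2 they had 16 and 5, and without a control replicate or case replicate 3 they had 3 to 4 and 1. The cause of these shifts was not tested.

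The deviations of same-numbered replicates had correlations of 0.063, 0.10 and -0.053, and those of differently numbered ones ran from -0.18 to 0.12. With 3 replicates per group, these values cannot decide whether the numbers pair the samples. The fit with the replicate block called 8 members higher, without *TOMM34*, and 848 and 762 genes over all.

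Members that changed sign were not called in the fit reported here. Unscaled FPKM gave *TOMM70* -0.022, *PHB2* -0.049, *TIMM50* -0.012 and *TIMM8A* -0.026. Equal FPKM sums gave *TOMM20* -0.11, *TOMM70* -0.15, *PHB2* -0.17, *HSPD1* -0.0074, *CLPP* -0.072, *LONP1* -0.12, *PMPCB* -0.11, *TIMM23B* -0.029, *TIMM50* -0.14 and *TIMM8A* -0.15. Quantile normalization gave *TOMM20* -0.044, *HSPA9* -0.0015, *PHB2* -0.19, *HSPD1* -0.011, *CLPP* -0.057, *LONP1* -0.079, *PMPCB* -0.014, *TIMM21* 0.065 and *TIMM50* -0.050. Correction for gene length gave *AFG3L2* 0.092, *PHB2* -0.11, *SPG7* 0.44, *YME1L1* 0.058, *CLPP* -0.020, *CLPX* 0.014, *PMPCA* 0.089, *TIMM21* 0.023 and *TIMM8A* -0.082. Correction for GC content gave *AFG3L2* 0.0025 and *TIMM21* 0.0082, voom gave *AFG3L2* 0.0000, and the wider scaling factors gave *AFG3L2* 0.015, *PMPCA* 0.014 and *TIMM21* 0.010. Leaving out 1 library at a time gave *TOMM40L* -0.23 to 0.099, *TOMM5* -0.31 to 0.13, *AFG3L2* -0.023 to 0.020, *HTRA2* -0.13 to 0.0094, *PHB2* -0.00050 to 0.083, *YME1L1* -0.15 to 0.083, *CLPP* -0.0044 to 0.21, *CLPX* -0.15 to 0.13, *LONP1* -0.050 to 0.18, *PMPCA* -0.10 to 0.061, *TIMM21* -0.041 to 0.039, *TIMM50* -0.047 to 0.17 and *TIMM8A* -0.086 to 0.17. For *TOMM5* and *HSPE1*, 21 to 57 and 41 to 75 reads per library limit the precision.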
